A study of Mus musculus with 82 samples.

Results

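The comparison set RNA bound to immunoprecipitated ribosomes from zone 1 of a mouse white matter stroke against the same kind of RNA from white matter of uninjured mice. It used 5 zone 1 libraries and 5 uninjured libraries of the 82 in the study, chosen by the titles the submitters gave, and all genes of the count table were examined. The brains had been perfused with 0.5% paraformaldehyde and frozen, the tissue was cut out by laser capture, and the captured lysate was used for the immunoprecipitation (IP). The uninjured mice are recorded as sham for white matter. Both groups carry the same handling, fixation and IP. The time after stroke, the age and strain of the mice, the tagged ribosome and the driver that directs it to a cell type, the position of zone 1 relative to the infarct and the animal behind each library are not given in the labels. Zones of one animal may therefore stand in several groups, and the p-values below measure the spread between libraries, which may be partly technical.

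White matter is made up of axons, the oligodendrocytes that wrap them in myelin, astrocytes, oligodendrocyte precursors, microglia and vessels, and neuronal cell bodies are few in it. After a stroke, microglia and macrophages take up and digest dying cells and myelin in lysosomes, and astrocytes become reactive, with more intermediate filament protein, secreted protease inhibitors and matrix proteins. An IP of ribosomes tagged in one cell type enriches that cell's RNA, and RNA of other cells in the lysate is carried over to some extent. The series title calls the libraries astrocyte-enriched. In uninjured white matter the summed level of 20 astrocyte markers ranged from 6394 to 11941 CPM in the IP and from 4708 to 6346 CPM in the unprecipitated input, so the IP was higher in every library. Other cell types' markers were higher in the uninjured IP as well: the oligodendrocyte sum was 35431 to 62982 CPM against 28063 to 33104 CPM in input, the neuronal sum 1167 to 2902 against 737 to 1065 CPM, and the precursor sum 2557 to 4950.5 against 2077 to 2457 CPM. CPM stands throughout for counts per 1000000 of the counts outside ribosomal RNA, scaled by the TMM factors (trimmed mean of M-values) of the white matter libraries. In bulk samples fewer cells of a type and less RNA per cell cannot be told apart.

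The libraries were mostly ribosomal. Mitochondrial ribosomal RNA took 59.5 to 76.7% of the 11665613 to 18333850 counts in the zone 1 libraries and 72.1 to 80.5% of the 13211575 to 22267196 counts in the uninjured libraries. After ribosomal RNA genes and genes that overlap or share reads with them were set aside, zone 1 replicates 1 to 5 kept 1273468, 3510337, 2769840, 2369735 and 943091 counts, and the uninjured libraries kept 1582078 to 4947368. Replicates 1 and 5 of zone 1 were thus the shallow ones, and replicate 1 had the fewest detected genes, 9298, and the lowest TMM factor, 0.580. Zone 1 libraries were also less alike: their median pairwise correlation across genes was 0.556, against 0.657 among uninjured libraries, and the SD of log2(CPM + 1) was wider in zone 1 for 76.7% of the 10438 genes tested. Genes are not independent replicates, so these correlations are descriptions.

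Immune and lysosomal genes, grouped by known role after their values were seen, made up the largest block of the rises in zone 1, 16 of 40. Cathepsins D and B, the complement subunits C1qb and C1qc, and B2m were among them. Serpina3n, a secreted protease inhibitor of reactive astrocytes, rose with them, and so did a set of neuronal genes led by synaptophysin. Aspa, Plekhb1 and Gpr37, genes of myelinating oligodendrocytes, fell. None of the 20 general astrocyte markers passed the threshold in either direction, where 0.45% of all tested genes did, so this empty count says little.

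Of 10438 genes tested, 40 rose (0.383%) and 7 fell (0.0671%) at an adjusted p under 0.05 in edgeR's quasi-likelihood test, and 1463 had an unadjusted p under 0.05. The median log2 fold change of all tested genes was 0.04, and 5325 of them were positive. With DESeq2's size factors in place of TMM the split was 31 higher and 1 lower, and the median of all genes moved to 0.19. In 33 of the 40 rises every zone 1 library lay above every uninjured library, as in 1.26% of all tested genes, and all 7 falls lay wholly below, as in 3.15%. Zone 1 replicate 1 was the highest library in 28 of the 40 rises and replicate 3 the lowest in 17. Without replicate 1 the fit called 153 higher and 122 lower, and without replicate 3 it called 110 and 16. Leaving out any 1 of uninjured replicates 1 to 5 left 10, 5, 16, 6 and 9 calls, of which 6, 3, 10, 5 and 6 were among the 40 rises, and leaving out zone 1 replicate 2, 4 or 5 left 31, 21 and 68. Of the 7 falls, none was called without zone 1 replicate 2 or 4 or without uninjured replicate 2, 4 or 5, 1 was called without uninjured replicate 1 or 3, 2 without zone 1 replicate 5, 6 without replicate 3 and 7 without replicate 1. Ctsd and C1qb were called in all 10 of these fits, Serpina3n in 9 and Mpeg1 in 8.

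**Figure D1:**
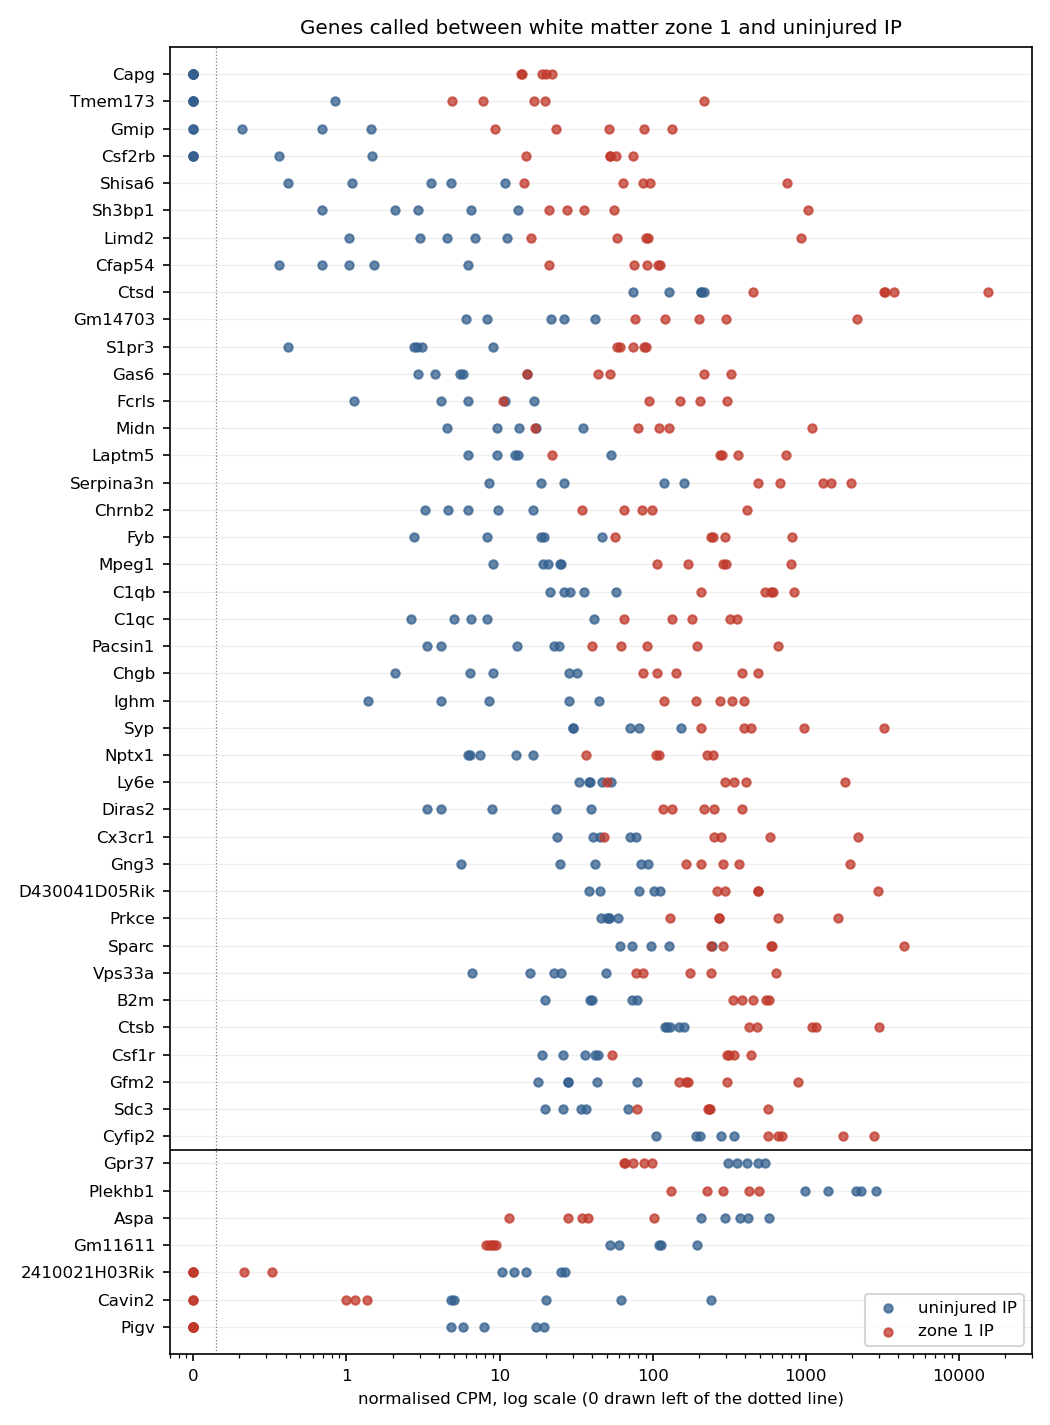
Normalised CPM on a log axis for each of the 47 called genes, 1 point per library, with zone 1 and uninjured libraries in different colours and zeros drawn left of the dotted line. The points of the 2 groups are apart in 33 of the 40 rises and in all 7 falls, and the zone 1 points spread more widely than the uninjured ones.

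Start-site sequences are shown for 3 of the rises, a lysosomal, a complement and an antigen presentation gene, chosen because each holds a searched motif. They are RefSeq windows on GRCm38.p6 from 250 bases before to 50 after a RefSeq start, written along the gene's strand. For Ctsd this start is not the gene boundary given below (142388038 on the minus strand). That boundary falls inside the window, which therefore reaches further into the gene. Capitals mark CACGTG, the E-box core of the lysosomal CLEAR element, in Ctsd (chr7:142387778-142388077, minus strand), ACTTCC, the reverse complement of the ETS core GGAAGT, in C1qb (chr4:136886151-136886450, minus strand), and GAAA, any 2 bases and GAAA again, the core of the interferon-stimulated response element (ISRE), in B2m (chr2:122147437-122147736, plus strand).
Ctsd: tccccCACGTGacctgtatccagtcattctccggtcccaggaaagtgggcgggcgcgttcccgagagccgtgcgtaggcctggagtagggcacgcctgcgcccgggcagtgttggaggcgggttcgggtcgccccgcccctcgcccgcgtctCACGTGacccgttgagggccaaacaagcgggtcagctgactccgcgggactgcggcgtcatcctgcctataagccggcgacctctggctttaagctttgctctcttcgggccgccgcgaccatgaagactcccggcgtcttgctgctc
C1qb: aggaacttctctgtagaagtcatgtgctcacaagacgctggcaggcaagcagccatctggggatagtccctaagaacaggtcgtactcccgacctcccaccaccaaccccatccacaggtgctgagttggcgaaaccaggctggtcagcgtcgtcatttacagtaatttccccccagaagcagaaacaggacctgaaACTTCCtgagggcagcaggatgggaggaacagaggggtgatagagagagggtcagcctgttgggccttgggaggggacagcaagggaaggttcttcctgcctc
B2m: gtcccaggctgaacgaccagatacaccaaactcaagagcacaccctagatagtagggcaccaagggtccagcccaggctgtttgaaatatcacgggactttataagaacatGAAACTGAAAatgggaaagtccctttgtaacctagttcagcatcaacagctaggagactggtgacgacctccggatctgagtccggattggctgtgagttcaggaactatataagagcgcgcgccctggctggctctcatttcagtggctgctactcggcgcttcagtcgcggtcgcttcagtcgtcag
The motifs were searched on both strands. Of the 40 rises 28 had such a window. CACGTG was in 3 of the 28 and in 8.09% of all genes with a window. GGAAGT was in 7 and in 26.5%, the ISRE core in 1 and in 3.99%, and TTCNNNGAA, the GAS core bound by STAT factors, in 0 and in 9.55%. A match is a description of letters, not of binding.

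Lysosomal proteases led the comparison. Ctsd encodes cathepsin D, the main aspartic protease of lysosomes (7:142375911-142388038, minus strand). Its level in zone 1 replicates 1 to 5 was 15570.5, 3297, 450.1, 3239.7 and 3739 CPM, and in the uninjured replicates 128, 206, 74.1, 206 and 217 CPM. All zone 1 libraries were above all uninjured ones, with replicate 1 far above and replicate 3 nearest to them. The log2 fold change was 5.06 ± 0.72 (SE, n = 5 and 5, adjusted p = 0.00317), and 4.02 without replicate 1. Ctsb, the cysteine protease cathepsin B, stood at 3021, 1097, 424, 1163 and 477 CPM in zone 1 and at 149.5, 120.3, 124, 161 and 129.6 CPM in uninjured tissue. It rose by 3.24 ± 0.57 (log2, SE; adjusted p = 0.0199) without overlap. Of 20 lysosome genes, all tested, these 2 rose, where 0.383% of all genes did. A positive fold change was found in 18, with a median of 1.86 against 0.04 for all genes. Without zone 1 replicate 3, 6 of the 20 rose, and without replicate 1, 3 did, where 0.981% and 1.31% of all genes rose. The summed lysosomal level was 2550.2 to 26437 CPM in zone 1 and 1694 to 2511 CPM in uninjured tissue, which did not overlap. Vps33a, a subunit of the complexes that tether vesicles to lysosomes, rose by 3.41 ± 0.77 (log2, SE; adjusted p = 0.045).

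Microglial and macrophage markers moved in one direction: 5 of 16 rose, where 0.383% of all genes did, and none fell. All 16 were positive, against 5325 of all 10438 genes, with a median log2 fold change of 3.48. C1qb, a chain of the complement initiator C1q (4:136880129-136886187, minus strand), was at 841, 610.1, 208, 544 and 596 CPM in zone 1. In the uninjured libraries it was at 57.6, 21.3, 28.8, 35.7 and 26.3 CPM. The lowest zone 1 library, replicate 3, was still above the highest uninjured one, and the log2 fold change was 4.11 ± 0.60 (SE; adjusted p = 0.00317). C1qc, its partner chain encoded nearby, was at 65.0, 354, 134, 318 and 181 CPM against 6.47, 41.2, 5.04, 8.29 and 2.63 CPM and rose by 4.10 ± 0.85 (log2, SE; adjusted p = 0.0299). Here replicate 1 was the lowest zone 1 library, unlike in most rises.

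The receptors of these cells rose too. Csf1r, the receptor for the growth factors CSF1 and IL-34 on which microglia depend, stood at 313, 438, 53.9, 338 and 305 CPM against 25.9, 44.0, 36.0, 41.9 and 18.8 CPM, a log2 fold change of 3.18 ± 0.66 (SE; adjusted p = 0.0299). Cx3cr1, the fractalkine receptor, was at 2196, 249.8, 48.0, 281 and 583 CPM against 23.6, 77.7, 45.0, 71.3 and 40.6 CPM. It rose by 3.78 ± 0.79 (log2, SE; adjusted p = 0.0328) with an overlap, since replicate 3 lay within the uninjured range. Laptm5, a lysosomal membrane protein of blood-derived cells, rose by 4.22 ± 0.84 (log2, SE; adjusted p = 0.0264), and its replicate 3, at 21.9 CPM, was below uninjured replicate 4, at 53.1 CPM. Among genes outside the list, Mpeg1, which encodes a pore-forming protein of phagocytes, was at 800.2, 301, 169, 286 and 107 CPM against 20.7, 24.7, 9.0, 19.1 and 25.2 CPM and rose by 4.14 ± 0.70 (log2, SE; adjusted p = 0.0184). Fcrls, a marker of resident mouse microglia, rose by 4.35 ± 0.93, and Fyb, an adaptor of leukocyte signalling, by 4.16 ± 0.82 (log2, SE; adjusted p = 0.0369 and 0.0226).

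The level of the microglial list as a whole followed the libraries. Its sum was 6181, 3362, 985, 2910.3 and 2942 CPM in zone 1 replicates 1 to 5, and 249 to 519 CPM in uninjured tissue. Replicate 3 had the lowest sum of the zone 1 libraries and still lay above all uninjured ones. Without replicate 3, 8 of the 16 rose, and without replicate 1, 6 did, where 0.981% and 1.31% of all genes rose. DESeq2 called 12 of them higher, with 4.78% of all genes higher and 2.13% lower, and limma voom with quality weights called 14, with 4.19% higher and 3.79% lower. The list's part in the results for immune genes was not tested. Of 16 blood leukocyte markers 1 passed the filter on low counts: Ptprc, the CD45 phosphatase that microglia also carry, with a log2 fold change of 4.37 ± 1.16 (SE; adjusted p = 0.0934). The leukocyte sum was 474, 73.3, 21.9, 62.1 and 43.8 CPM in zone 1 and 0 to 44.3 CPM in uninjured tissue, and 11 of the 16 markers were at 0 in all uninjured libraries.

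**Figure D2:**
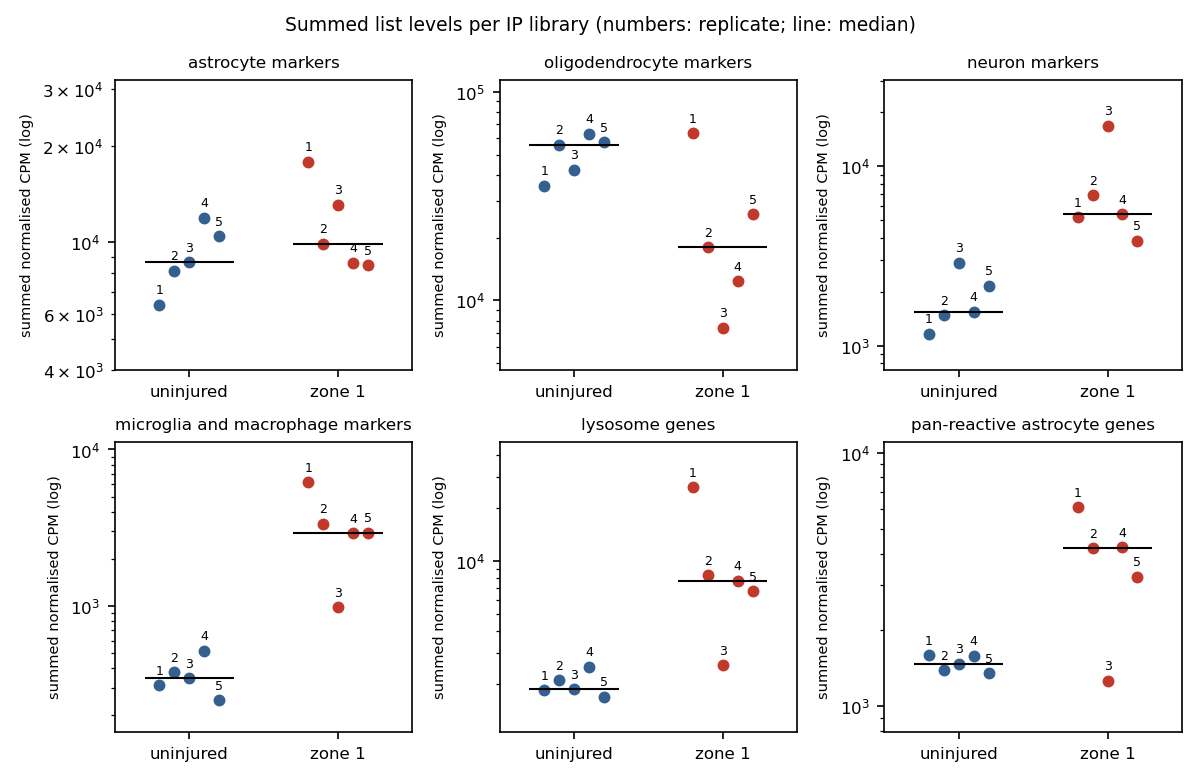
Summed normalised CPM, log axis, of the members of each marker list in each IP library, with the replicate number at each point and a line at the group's median. The microglial sums of zone 1 (985 to 6181 CPM) lie above the uninjured sums (249 to 519 CPM), and replicate 3 is the lowest zone 1 library for microglia and the highest for neurons.

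Several rises started from almost no reads. Capg, an actin-capping protein of macrophages, was at 19.0, 20.0, 13.7, 21.8 and 13.9 CPM in zone 1 and had 0 reads in all 5 uninjured libraries, against 240 in zone 1. Set against a floor of 3 counts over the uninjured group, it was at least 86.9-fold higher (adjusted p = 0.0284). Csf2rb, the shared beta subunit of the GM-CSF, IL-3 and IL-5 receptors, was at 52.8, 14.9, 73.9, 52.7 and 57.7 CPM against at most 1.46 CPM, with a log2 fold change of 6.79 ± 1.32 (SE; adjusted p = 0.0226). Tmem173, which encodes the cytosolic DNA sensor adaptor STING, had a fold change of 7.72 ± 1.58 (log2, SE; adjusted p = 0.0299), but its zone 1 values of 217, 7.76, 4.90, 16.7 and 19.9 CPM rested on replicate 1. Without that library its adjusted p was 0.063 and the log2 fold change 5.6. Ighm, the immunoglobulin mu heavy chain gene, rose by 3.96 ± 0.83, and Ly6e, a lipid-anchored surface protein induced by interferon, by 3.86 ± 0.74 (log2, SE; adjusted p = 0.0328 and 0.0226).

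Antigen presentation and interferon genes had positive fold changes, with few past the threshold. B2m, the light chain of all MHC class I molecules, was at 336, 577, 551, 454 and 385 CPM in zone 1 and at 19.8, 39.9, 38.9, 73.0 and 78.5 CPM in uninjured tissue. The groups lay far apart, replicate 3 was among the highest, and the log2 fold change was 3.25 ± 0.58 (SE; adjusted p = 0.0199). It was the 1 member called of 6 tested among 15 antigen presentation genes, where 0.383% of all genes rose. All 6 were positive with a median of 3.23. H2-K1, a class I heavy chain, had 3.84 ± 1.00 (log2, SE; adjusted p = 0.0824). Of 16 interferon response genes 11 were tested and none passed, though all 11 were positive with a median of 1.99. Without replicate 1, 3 of 14 tested rose, where 1.31% of all genes did. Ifit3, an interferon-induced inhibitor of viral translation, was at 21.7, 58.8, 7.19, 76.3 and 82.6 CPM against 0 to 3.60 CPM, with a log2 fold change of 5.15 ± 1.27 (SE; adjusted p = 0.0687). Complement genes added C1qb and C1qc as 2 rises of 8 tested, and C4b, which encodes the component C4, had 2.57 ± 0.67 (log2, SE; adjusted p = 0.0823).

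Among genes of reactive astrocytes, Serpina3n had the lowest adjusted p (12:104406729-104414329, plus strand). It stood at 1959, 1287, 485, 1466 and 680.5 CPM in zone 1 and at 8.56, 18.6, 26.3, 119 and 160.1 CPM in uninjured tissue. No libraries overlapped, and the log2 fold change was 4.20 ± 0.75 (SE; adjusted p = 0.0199). S1pr3, a receptor for the lipid sphingosine-1-phosphate, was even among the zone 1 libraries, at 60.9, 88.1, 89.9, 74.6 and 58.7 CPM, against 0.415 to 9.02 CPM, and rose by 4.38 ± 0.97 (log2, SE; adjusted p = 0.0425). These were 2 rises of 7 tested among 13 pan-reactive genes, where 0.383% of all genes rose. All 7 were positive with a median of 3.09. Vim, the intermediate filament vimentin, was at 440.0, 766, 31.7, 679.5 and 227 CPM against 17.3 to 63.0 CPM, a log2 fold change of 3.11 ± 0.71 (SE; adjusted p = 0.0506). Its value for replicate 3 lay within the uninjured range, and without replicate 1 its adjusted p was 0.0199.

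Gfap, the filament protein that defines reactive astrocytes, did not pass. It was at 3629, 1886, 578, 1757 and 2139 CPM in zone 1 and already at 1499.7, 1278, 1420.2, 1363 and 1103 CPM in uninjured white matter. In 4 libraries of zone 1 it was above all uninjured ones and in replicate 3 below them, and the log2 fold change was 0.65 ± 0.45 (SE; adjusted p = 0.548). Cd44, a hyaluronan receptor of reactive astrocytes and leukocytes, had 3.09 ± 1.25 (log2, SE; adjusted p = 0.254). Of 12 A1-type genes 5 were tested, of 12 A2-type genes 1, and none was called.

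Secreted and surface proteins formed a small further group. Sparc, a matrix glycoprotein that astrocytes, microglia and vessels make (11:55394500-55423183, minus strand), was at 4364, 598, 242, 590.2 and 288 CPM against 96.9, 61.2, 73.8, 128 and 243 CPM. It rose by 3.41 ± 0.75 (log2, SE; adjusted p = 0.0425), and by 1.83 without replicate 1 (adjusted p = 0.0435). It was the 1 rise of 9 collagen and basement membrane genes and of 11 synaptogenic and growth factor genes tested. Gas6, a ligand of the TAM receptors that phagocytes use to engulf dying cells, rose by 4.37 ± 0.95, and Sdc3, the heparan sulphate proteoglycan syndecan 3, by 2.92 ± 0.67 (log2, SE; adjusted p = 0.0425 and 0.0498). For Gas6 the zone 1 libraries ran from 14.95 CPM in replicate 3 to 325 CPM in replicate 1, and the lowest lay within the uninjured range of 2.92 to 15.1 CPM. Ncan, the chondroitin sulphate proteoglycan neurocan, which rises in astrocytic scars, was at 3109, 920.0, 767, 870.3 and 629.8 CPM against 188 to 554 CPM. It missed the threshold, with a log2 fold change of 2.22 ± 0.55 (SE; adjusted p = 0.0707), although no libraries overlapped.

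The markers of astrocytes at large had 20 members tested, of which none rose or fell, where 0.45% of all genes did. Of the 20, 14 were positive, and the median log2 fold change was 0.45. Slc1a2, the main astrocytic glutamate transporter, was at 5608, 3966, 5859.6, 3634 and 3764 CPM in zone 1 and at 2443, 3181, 3637, 3926 and 4472 CPM in uninjured tissue. The ranges overlapped and the log2 fold change was 0.42 ± 0.37 (SE; adjusted p = 0.649). The partner transporter Slc1a3 had 0.68 ± 0.53, the water channel Aqp4 0.66 ± 0.60 and the glial transcription factor Sox9 0.81 ± 0.64 (log2, SE; adjusted p = 0.603, 0.675 and 0.617). Aldh1l1, a folate enzyme used as an astrocyte marker, had -0.15 ± 0.80, and the calcium-binding protein S100b -0.03 ± 0.69 (log2, SE; adjusted p = 0.958 and 0.992). Both became slightly positive with DESeq2's size factors. The summed astrocyte level was 8477 to 17821 CPM in zone 1 and 6394 to 11941 CPM in uninjured libraries. None of 16 tested genes for handling glutamate, potassium and water was called.

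Neuronal genes made up the other block of rises. Syp, the synaptic vesicle protein synaptophysin (X:7638471-7653256, plus strand), was at 3233, 206, 976, 437 and 396 CPM in zone 1 and at 81.2, 71.5, 152, 30.3 and 30.1 CPM in uninjured tissue. All zone 1 libraries were above all uninjured ones, and the log2 fold change was 3.92 ± 0.74 (SE; adjusted p = 0.0226), or 2.82 without replicate 1. Chgb, chromogranin B of dense-core vesicles, was at 487, 107, 383, 141 and 86.6 CPM against 2.06 to 32.2 CPM and rose by 4.00 ± 0.83 (log2, SE; adjusted p = 0.0299). Nptx1, the secreted synaptic protein neuronal pentraxin 1, was at 36.6, 105, 226, 246 and 110.4 CPM against 6.19 to 16.6 CPM and rose by 3.92 ± 0.79 (log2, SE; adjusted p = 0.0268). In Nptx1 replicate 1 was the lowest of zone 1, and in Syp and Chgb the highest.

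Receptor and signalling genes of neurons completed the block. Shisa6, an auxiliary subunit of AMPA receptors, was at 749, 64.0, 14.4, 86.7 and 95.5 CPM against 0.415 to 10.9 CPM, and rose by 5.66 ± 1.10 (log2, SE; adjusted p = 0.0226), or 3.97 without replicate 1. Prkce, a protein kinase C found at high level in neurons, was at 1611, 269, 657, 272 and 130.3 CPM against 46.0 to 59.7 CPM, with a log2 fold change of 3.56 ± 0.67 (SE; adjusted p = 0.0226). The nicotinic receptor subunit Chrnb2, the endocytic adaptor Pacsin1, the G protein subunit Gng3, the GTPase Diras2 and the actin and translation regulator Cyfip2 rose by 4.18, 4.03, 3.65, 3.83 and 2.60 on the log2 scale. Of these 5, Pacsin1 and Gng3 lost the call without replicate 1 (adjusted p = 0.0687 and 0.0532).

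Across the 18 neuron markers Syp was the 1 rise (0.383% of all genes rose), 17 were positive and the median log2 fold change was 2.06. The counts depended on the libraries: 7 rose without replicate 1, 1 without replicate 3 and 11 without both shallow libraries, where 1.68% of all genes rose. The shares of all genes were 1.31% without replicate 1 and 0.981% without replicate 3. DESeq2 called 8 higher (4.78% of all genes) and voom 12 (4.19%). Snap25, a vesicle fusion protein, was at 596, 1844, 3681, 1466 and 586 CPM against 292 to 525 CPM. Its libraries did not overlap, and its log2 fold change of 2.12 ± 0.52 (SE; adjusted p = 0.0705) missed the threshold. Camk2a, a kinase of excitatory synapses, had 1.91 ± 0.68 and the vesicular glutamate transporter Slc17a7 3.18 ± 0.89 (log2, SE; adjusted p = 0.211 and 0.116), and Slc17a7 was at 2.71 CPM in replicate 1 and at 185 to 505 CPM in the others. The neuronal sum was 5224, 6920.2, 16869, 5391 and 3847 CPM in zone 1 and 1167 to 2902 CPM in uninjured libraries. Replicate 3, the lowest in the microglial sum, was thus by far the highest in the neuronal sum. The called genes differed: of the 10 neuronal rises 8 were highest in replicate 1 and 1 in replicate 3. All 5 zone 1 sums were above the uninjured ones, and the part of neuronal RNA as a whole in the rises of single neuronal genes was not tested.

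The other 9 rises, Vps33a among them, were grouped under no common role. Gmip, a GTPase-activating protein named for its binding to Gem, had a log2 fold change of 7.0 ± 1.33 (SE; adjusted p = 0.0226) from levels of 88.0, 9.27, 51.6, 23.2 and 133 CPM against at most 1.44 CPM. Limd2, a LIM domain protein, rose by 5.55 ± 1.06, and Cfap54, a protein of cilia and flagella, by 5.40 ± 1.06 (log2, SE; adjusted p = 0.0226 for each). Sh3bp1, a GTPase-activating protein for Rac, was at 1026, 56.2, 35.6, 27.5 and 20.9 CPM against 0.687 to 13.2 CPM. Its log2 fold change of 5.58 ± 1.21 (SE; adjusted p = 0.0425) was 2.79 without replicate 1 (adjusted p = 0.168), and Midn, which encodes midnolin, likewise lost its call without that library (4.25 ± 0.96 with it and 2.41 without). Gfm2, a mitochondrial elongation factor, rose by 3.17 ± 0.69, and D430041D05Rik, annotated as protein-coding, by 3.64 ± 0.70 (log2, SE). Gm14703, an antisense gene (X:7651106-7657258, minus strand), rose by 4.85 ± 0.92 (log2, SE). It overlaps the end of Syp (X:7638471-7653256, plus strand), and whether the 2 genes share counts was not tested. Of the 40 rises 38 are annotated as protein-coding.

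Of the 7 falls, 3 were oligodendrocyte genes. Plekhb1, a membrane-binding protein abundant in myelinating glia and photoreceptors (7:100642892-100662414, minus strand), was at 425, 289, 131, 227 and 495 CPM in zone 1 and at 981, 2113, 1399, 2860.0 and 2295 CPM in uninjured tissue. All zone 1 libraries were below all uninjured ones, and the gene fell by 2.56 ± 0.50 on the log2 scale (SE; adjusted p = 0.0226). Aspa, aspartoacylase, the oligodendrocyte enzyme that splits N-acetylaspartate (11:73304992-73329596, minus strand), was at 37.9, 34.7, 11.4, 28.1 and 102 CPM against 577, 373, 298, 208 and 422 CPM, and fell by 3.07 ± 0.65 (log2, SE; adjusted p = 0.0361). Gpr37, a receptor that restrains oligodendrocyte maturation in mice (6:25665878-25690729, minus strand), was at 98.8, 88.4, 66.4, 64.6 and 74.6 CPM against 491, 545, 413, 311 and 353 CPM. The zone 1 values were close to each other, and it fell by 2.37 ± 0.52 (log2, SE; adjusted p = 0.0425). With DESeq2's size factors these 3 genes kept a negative sign and lost the call.

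Of 16 oligodendrocyte markers, Aspa was the 1 that fell (0.0671% of all genes fell), 15 were negative and the median log2 fold change was -0.97. The number that fell was 8 without zone 1 replicate 1 and 1 without replicate 3, where 1.05% and 0.143% of all genes fell, and 9 without both shallow libraries, where 1.52% did. Mbp, myelin basic protein, was at 13636, 5848, 2884, 3658 and 8488 CPM against 10029, 22649, 17012, 29949.8 and 27323 CPM. Its log2 fold change was -1.57 ± 0.44 (SE; adjusted p = 0.116), and -2.01 without replicate 1 (adjusted p = 0.00933). Ermn, an oligodendrocyte cytoskeletal protein, had -1.45 ± 0.50 (log2, SE; adjusted p = 0.194). The oligodendrocyte sum was 63323, 17968, 7408, 12393 and 25828 CPM in zone 1 and 35431 to 62982 CPM in uninjured libraries. Oligodendrocyte precursor markers had 12 members tested, none called, and a median of -0.14.

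The other 4 falls were grouped under no common role. Pigv, a mannosyltransferase of GPI anchor synthesis, had 0 counts in all zone 1 libraries and 174 in the uninjured ones, at 17.3, 4.81, 5.76, 19.5 and 7.89 CPM. Against the floor of 3 counts over the zone 1 group it was at least 53.4-fold lower (adjusted p = 0.045), and it was called in 1 of the 10 fits that left out a library. Cavin2, a protein of caveolae in endothelium, had 6 counts in zone 1 and 860 in uninjured tissue, where replicate 4 alone was at 239.6 CPM. It fell by 6.69 ± 1.5 (log2, SE; adjusted p = 0.045), while the 7 endothelial markers tested had no call and a median of -0.31. Gm11611 fell by 3.52 ± 0.79, with zone 1 values of 8.17 to 9.48 CPM against 52.9 to 195 CPM, and 2410021H03Rik fell by 6.54 ± 1.44, with 2 counts in zone 1 and 283 in uninjured tissue (log2, SE).

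**Figure D3:**
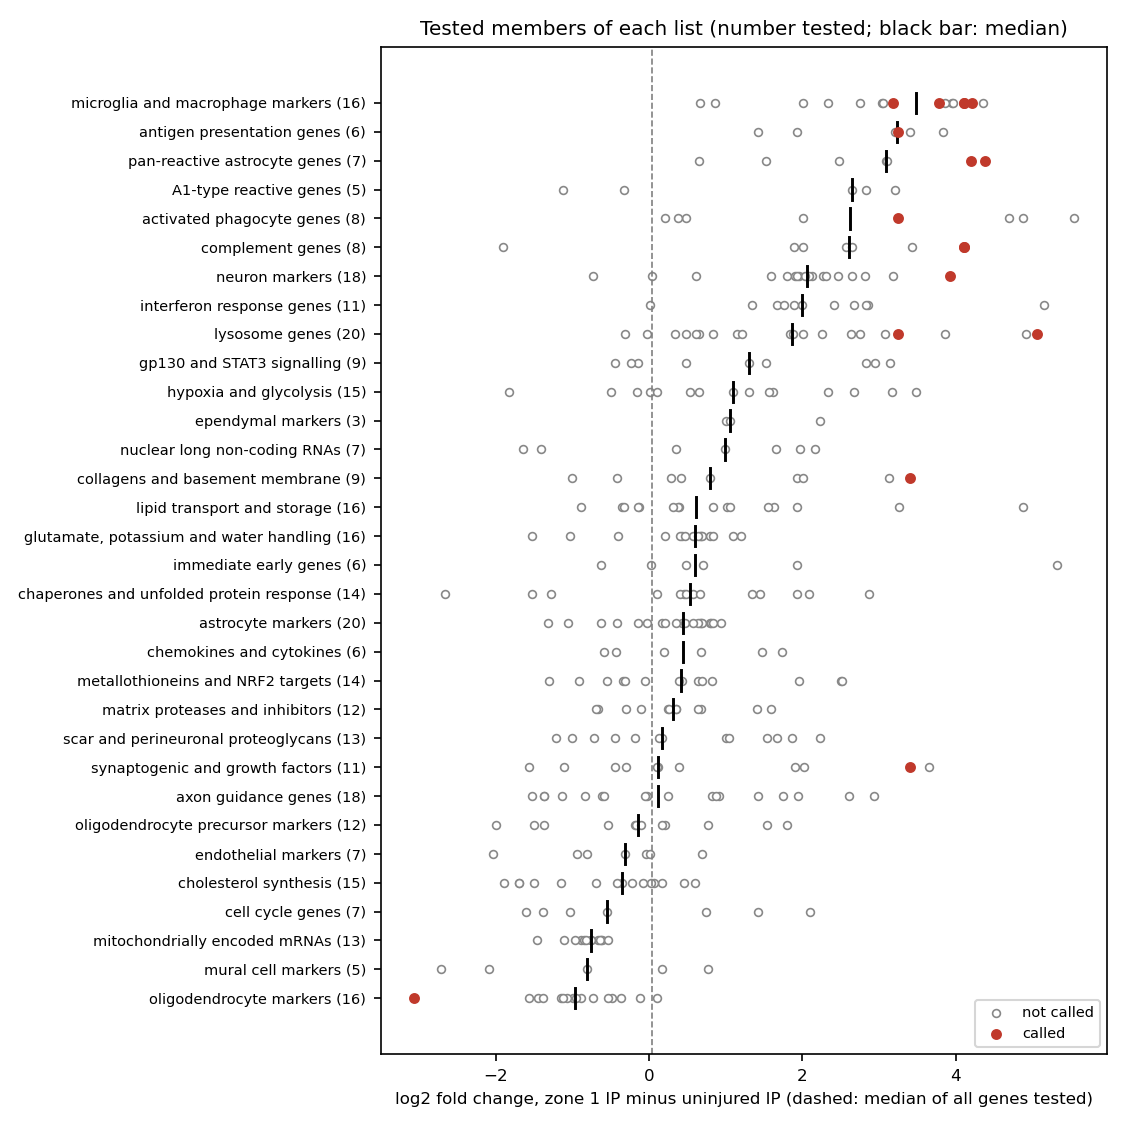
Log2 fold change, zone 1 IP minus uninjured IP, of each tested member of each gene list, with the number tested in brackets, a black bar at the list's median and a dashed line at the median of all genes tested. Microglial, antigen presentation and pan-reactive lists have medians of 3.48, 3.23 and 3.09, and the oligodendrocyte list has -0.97.

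Mitochondrially encoded mRNAs and Malat1 took lower shares of the counts in zone 1. The 13 mitochondrial mRNAs took 6.39 to 10.3% of counts outside ribosomal RNA in zone 1 and 12.2 to 20.2% in uninjured libraries, without overlap. None was called, all 13 were negative with a median log2 fold change of -0.76, and 6 lay wholly below the uninjured range, as 3.15% of all genes did. The cytochrome oxidase subunit mt-Co1 had -0.85 ± 0.34 (log2, SE; adjusted p = 0.247). Malat1, a nuclear long non-coding RNA, took 1.62 to 4.25% against 6.41 to 10.1%, and its log2 fold change was -1.41 ± 0.43 (SE; adjusted p = 0.144), or -2.16 without replicate 1 (adjusted p = 0.00151). The 20 highest genes of each library together held 15 to 24.5% of these counts in zone 1 and 32.1 to 39.0% in uninjured tissue. The part of these shares in the fold changes was not tested.

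Other pathways of injury had no member past the threshold, where 0.45% of all genes passed, so an empty list says little. Hypoxia and glycolysis genes had 15 tested with a median log2 fold change of 1.09, and Ndrg1, a hypoxia-induced gene also abundant in oligodendrocytes, had -1.83 ± 0.52 (SE; adjusted p = 0.123). Lipid transport and storage genes had 16 tested with a median of 0.61, and Lpl, lipoprotein lipase, was at 9.48, 51.9, 44.5, 43.4 and 33.8 CPM against 0 to 3.96 CPM, a log2 fold change of 4.87 ± 1.27 (SE; adjusted p = 0.0824). Cholesterol synthesis genes had 15 tested with a median of -0.36, and their regulator Srebf2 had -0.41 ± 0.57 (SE; adjusted p = 0.81). Metallothioneins and NRF2 targets had a median of 0.42, chaperones 0.53, immediate early genes 0.59, proteoglycans 0.17, matrix proteases 0.31, chemokines and cytokines 0.44, gp130 and STAT3 signalling 1.31, axon guidance 0.12 and cell cycle genes -0.55, with none called. The iron storage genes Ftl1 and Fth1 went apart, at 2.51 ± 0.64 and -1.30 ± 0.44 (log2, SE; adjusted p = 0.0779 and 0.192).

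Many injury genes were too sparse for the test. Of the lists' members 165 did not pass the filter on low counts. Of these, 58 had 0 counts in all uninjured libraries, and 49 of the 58 had counts in zone 1, in 35 cases in at least 2 libraries. In the other direction 14 had 0 counts in all zone 1 libraries, and 5 of the 14 had counts in uninjured tissue. The lists were chosen with earlier results known, and the share among all sparse genes was not worked out. Spp1, the secreted phosphoprotein osteopontin of activated phagocytes, had 615, 271, 0, 300 and 34 counts in zone 1 replicates 1 to 5 and 0 in uninjured tissue. C3, the central complement component, had 6, 132, 0, 229 and 0 counts against 0, and Cxcl10, an interferon-induced chemokine, had 6, 99, 1, 182 and 109 counts against 1 in all. The class II chain H2-Aa had 16, 21, 0, 33 and 100 counts, the interferon-induced Bst2 had 19, 122, 7, 96 and 35, and Cst7, an inhibitor of cathepsins in activated microglia, had 0, 100, 0, 52 and 11, each against 0. Replicate 3 had 0 to 7 counts in each of these, and replicates 2 and 4 held most of the counts of C3 and Cst7. The named genes of this paragraph were chosen after their values were seen.

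No gene was called between zone 1 and zone 2, the next by number. Of 10290 genes tested between the zones none was called by edgeR (percent called 0), with a lowest adjusted p of 0.789 and 641 unadjusted p under 0.05, and DESeq2 called 0 as well. Ctsd had a log2 difference, zone 1 minus zone 2, of 2.15 ± 0.62, C1qb of 1.27 ± 0.54, Serpina3n of 0.86 ± 0.52, B2m of 0.53 ± 0.51 and Plekhb1 of -1.20 ± 0.52 (SE, n = 5 and 5). Without a filter on low counts 187 genes were called.

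The members chosen in zone 1 were followed as levels over all 5 zones, which share their uninjured controls. The median over the 40 rises of the mean CPM was 19.1 in uninjured tissue, 279 in zone 1, 137 in zone 2, 133 in zone 3, 90.1 in zone 4 and 59.4 in zone 5. For 34 of the 40 zone 1 had the highest mean of the zones, a description, since zone 1 chose them. Ctsd went from 5259 ± 5909.6 CPM (SD, n = 5) in zone 1 to 1242 ± 128, 1842 ± 1231, 432 ± 228 and 303 ± 203 CPM in zones 2 to 5, against 166 ± 62.6 CPM in uninjured tissue. B2m went from 461 ± 104 to 325 ± 146, 233 ± 144, 184 ± 92.0 and 81.8 ± 23.3 CPM, against 50.0 ± 24.9 CPM. Between neighbouring zones the difference in B2m was larger than both SDs for zones 4 and 5 alone. The exceptions to the highest mean were Fyb and Gas6 (zone 3), Nptx1 (zone 4), and Prkce, Diras2 and Gng3 (zone 5). All 7 falls had their lowest mean of the zones in zone 1.

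**Figure D4:**
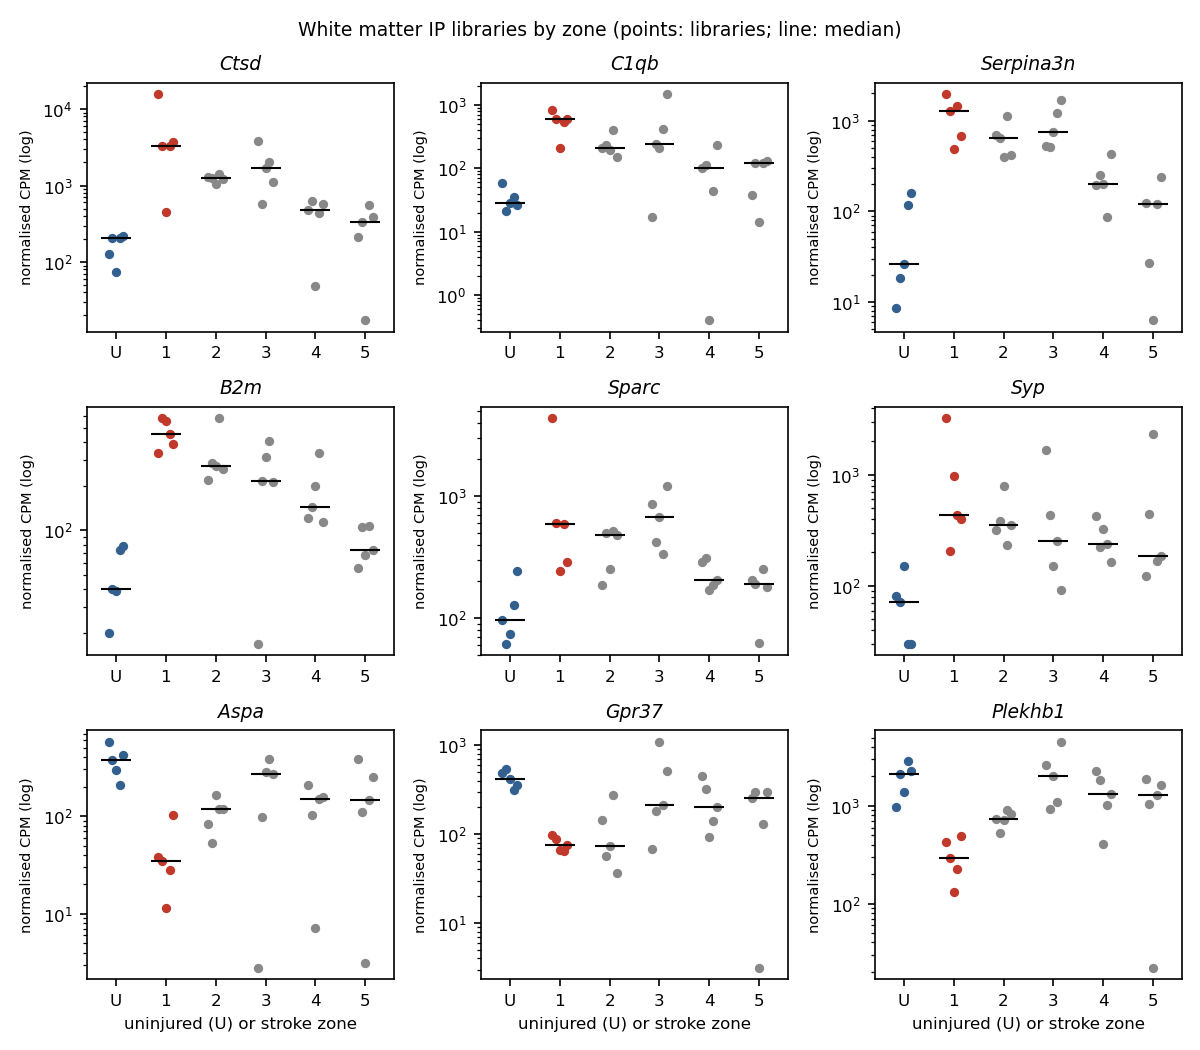
Normalised CPM, log axis, of 9 called genes in every white matter IP library, by uninjured tissue (U) and stroke zones 1 to 5, with a line at the median. Ctsd, C1qb, Serpina3n and B2m have lower means in zones 4 and 5 than in zone 1, and Aspa, Plekhb1 and Gpr37 have their lowest mean of the zones in zone 1.

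The input libraries share no library with the IP comparison and hold all captured cells. Stroke inputs have zones 1 to 3 pooled, so they differ from zone 1 in tissue as well. Uninjured input and IP libraries carry the same replicate numbers, and the labels do not say whether they share mice or lysates. The input comparison may therefore not be independent of the IP comparison. Between 3 stroke and 5 uninjured inputs 8 of 14556 genes rose (0.055%) and none fell, and 1401 had an unadjusted p under 0.05. Of the 40 rises of the IP 6 also rose in input (6 of its 8), namely Ctsd, C1qb, C1qc, Mpeg1, Fyb and B2m, and 37 were positive there with a median log2 fold change of 1.73, where 50.5% of all genes were positive and their median was 0.01. Vim and Dhrs3, a retinal reductase, were the other 2 input rises, at 2.58 and 5.55 on the log2 scale. Ctsd was at 1104 ± 447 CPM (SD, n = 3) in stroke input and 101 ± 36.5 CPM (SD, n = 5) in uninjured input, a log2 fold change of 3.45 ± 0.32 (SE; adjusted p = 0.000172). C1qb was at 281 ± 225 and 41.3 ± 8.80 CPM, a log2 fold change of 2.76 ± 0.42 (SE; adjusted p = 0.0179).

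Of the 16 immune and lysosomal rises, grouped by known role after their values were seen, 15 were positive in input with a median log2 fold change of 2.40. Of the 10 neuronal rises 8 were positive there, with a median of 0.93, and the negative ones were Syp at -0.03 ± 0.63 and Gng3 at -0.38 ± 0.65 (SE; adjusted p = 0.992 and 0.91). Summed neuron markers were 1121 to 1785 CPM in stroke input and 737 to 1065 CPM in uninjured input. Aspa had -0.42 ± 0.22 in input, Plekhb1 -0.57 ± 0.19 and Gpr37 -0.32 ± 0.29 (log2, SE; adjusted p = 0.564, 0.315 and 0.79). The difference between the IP and input changes was not tested. Microglial markers summed to 1138 to 2438 CPM in stroke input and to 985 to 6181 CPM in zone 1 IP, and to 373 to 472 and 249 to 519 CPM in the uninjured input and IP.

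**Figure D5:**
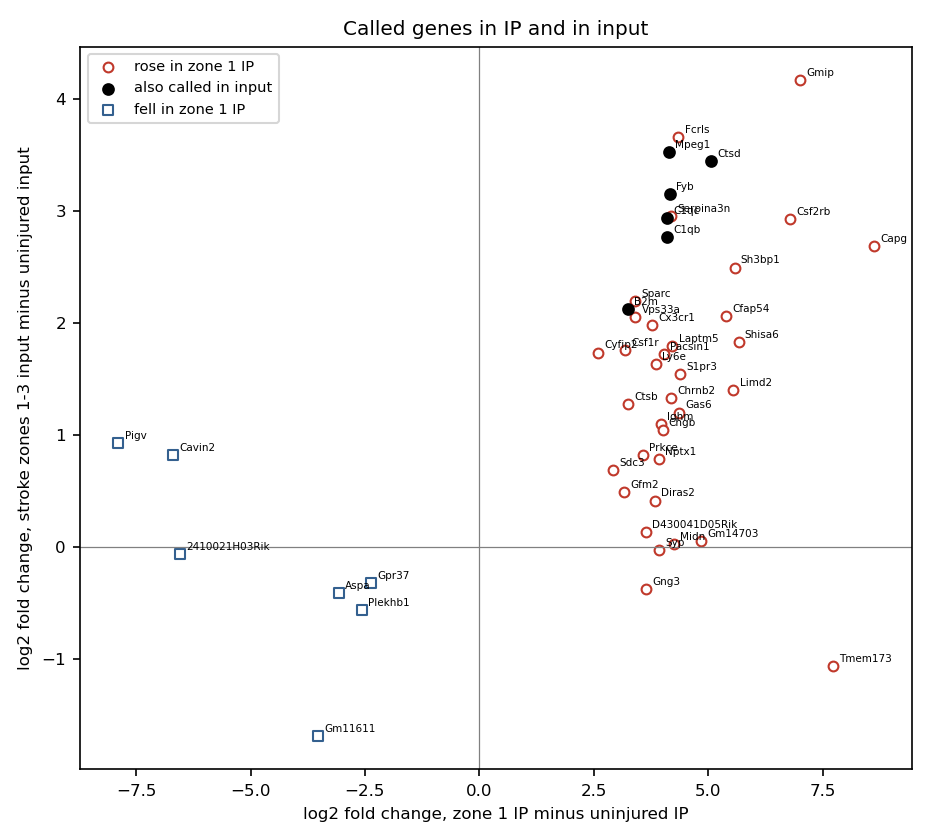
Log2 fold change of each called gene in the IP (x axis, zone 1 minus uninjured) and in the input (y axis, stroke zones 1 to 3 minus uninjured), with filled black points for genes also called in input. Of the 40 rises 37 lie above 0 on the input axis, and Syp, Gng3 and Tmem173 lie below.

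The zone 1 change was then set against that of the cortex, where myelin genes, Gfap and some neuronal genes differed. The test was the interaction of region and injury, white matter change minus cortical change, with 5 zone 1 and 5 uninjured IP libraries of a cortical stroke added, and of 14601 genes 150 were higher (1.03%) and 124 lower (0.849%), 1.88% in all. Since the white matter libraries are shared with the comparison that chose them, the calls among the 40 rises (20 higher) and the 7 falls (6 lower) are descriptions. None of the 16 microglial markers was called, with a median interaction of -0.23, and none of the 20 astrocyte markers, with a median of 0.04. With 1.88% of all genes called, such empty counts say little. C1qb was at 602 ± 174 CPM in cortical zone 1 and 26.9 ± 11.9 CPM in uninjured cortex (SD, n = 5), and its interaction was -0.40 ± 0.58 (SE; adjusted p = 0.783).

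Myelin genes had the most calls among the marker lists. Of 16 oligodendrocyte markers 11 had a lower change in white matter, with a median interaction of -2.98 on the log2 scale. Mbp went from 943 ± 193 CPM in uninjured cortex to 2519 ± 573 CPM in cortical zone 1 (SD, n = 5), and from 21393 ± 8036 to 6903 ± 4349 CPM in white matter, an interaction of -2.99 ± 0.50 (SE; adjusted p = 0.00279). Gfap went from 103 ± 33.9 to 1106 ± 325 CPM in cortex and from 1333 ± 152 to 1998 ± 1092 CPM in white matter, an interaction of -2.81 ± 0.52 (SE; adjusted p = 0.00467). Neuron markers had 3 of 18 with a higher change in white matter. Syp was at 832 ± 205 CPM in cortical zone 1 and 799 ± 152 CPM in uninjured cortex, with an interaction of 3.85 ± 0.78 (SE; adjusted p = 0.00895). In uninjured white matter it was at 73.0 ± 50.0 CPM, below either cortical mean, though white matter and cortex were scaled separately.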

How the data were processed

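The authors deposited 1 table of raw, unnormalized read counts over 48795 Ensembl genes, and GENCODE vM21 gave a symbol for 48349. The build is GRCm38 (mm10) per the submitters' processing notes. Per the labels' protocols, RNA was amplified with the NuGEN Ovation V2 system before library preparation and paired-end sequencing. An aligner, a counter and a strand setting were not given in the sources used here, so overlapping and antisense genes may share counts. Ribosomal RNA genes, with Gm42418, CT010467.1, Gm23935 and Lars2, were set aside. Genes passing filterByExpr (minimum count 10, minimum total 15) were tested with edgeR 4.0.16 (TMM, robust quasi-likelihood, Benjamini-Hochberg, 0.05) in R 4.3.3, using the libraries of each comparison. Each SE was obtained from the fold change and its F statistic (log2 size over root F). Alternatives used DESeq2 1.42.0 and limma 3.58.1.

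In simulated counts with a dispersion of 0.5, 12969 genes were tested. Recovered were 20 of 100 genes changed 4-fold and 87 of 100 changed 16-fold, and 5 of 112 calls were unchanged genes. The dispersion was the same for every gene and both groups, while zone 1 libraries spread more widely in the data. These shares therefore do not give the power or error rate of the real comparison. No replicate pair matched within sampling noise (chi-square per degree of freedom at least 35.0). Each SE includes the spread between libraries as the fit estimated it, and the floors cover counting error only.

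The comparison, its 36 gene lists and the reference genes were chosen with earlier results of these data known. The genes named were up to 12 largest rises and falls without overlap between groups (symbols of predicted genes left out), up to 4 called members and the highest uncalled member of each list, and the reference genes. For the interaction, up to 6 of the largest differences each way were named. The other called genes and list members in the text were chosen after their values were seen. Sequencing batches were not analysed here. Some list members are not reported here by name.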

Additional observations from a re-analysis of the deposited data

Results flagged for a closer look

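Values far from the other libraries of a group were looked for in each group of 5 libraries, where the gap to the nearest library exceeded 0.710 of the range (Dixon's 95% limit). For normally distributed values chance gives about 1 in 20 groups. The limit was applied to unlogged CPM, for which the rate was not worked out. In zone 1 the library concerned was mostly replicate 1, which had 1273468 counts outside ribosomal RNA and a TMM factor of 0.580. It was the highest for Ctsd (15570.5 CPM, next 3739), Ctsb (3021 CPM), Vps33a (638 CPM), Cx3cr1 (2196 CPM), Mpeg1 (800.2 CPM), Tmem173 (217 CPM), Sparc (4364 CPM), Syp (3233 CPM), Shisa6 (749 CPM), Sh3bp1 (1026 CPM), Ly6e (1816 CPM) and Malat1 (73312 CPM). These genes belong to microglial, neuronal and nuclear groups alike. The sum of the Olfr and Vmn chemosensory receptor genes, without TMM scaling, was at 1720.9 CPM in zone 1 replicate 5, the shallowest library. It was at most 246.9 CPM in the other zone 1 libraries.

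Single uninjured libraries stood apart for Laptm5 (replicate 4, 53.1 CPM), C1qc (replicate 2, 41.2 CPM), Csf2rb and Tmem173 (replicate 1, 1.46 and 0.835 CPM), Gas6 (replicate 3, 15.1 CPM), Cavin2 (replicate 4, 239.6 CPM) and Vim (replicate 3, the lowest, 17.3 CPM).

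The zone 1 change differed between white matter and cortex, by the interaction in edgeR's quasi-likelihood fit, for genes named in the report and for the largest differences. Oligodendrocyte genes and Gfap had the lower change in white matter: on the log2 scale Gfap had -2.81, Mbp -2.99, Ermn -3.64, Aspa -3.90, Gpr37 -2.87 and Plekhb1 -3.07 (adjusted p from 0.00279 to 0.00895). The neuronal genes named had the higher change: Syp 3.85, Snap25 2.46, Prkce 3.92, Diras2 4.62, Nptx1 3.73 and Chgb 4.26 (adjusted p from 0.00279 to 0.0192). Among all these genes, Aspa, Gpr37, Plekhb1, Syp, Prkce, Diras2, Nptx1 and Chgb had been called in the white matter comparison. The interaction uses the same white matter libraries, so their values are descriptions. Across the 18 neuron markers 3 were called higher.

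The largest differences rested on few reads. Higher in white matter were Dnhd1 (11.38), Palm3 (10.32), the activity-induced transcription factor Npas4 (10.05), Smim3 (9.96), Lsm10 (9.93) and Evpl (9.76). Zone 1 replicate 1 held 98.0% of the zone 1 white matter counts of Dnhd1, 74.7% of those of Lsm10 and 94.1% of those of Evpl. Palm3 and Smim3 had counts in 2 zone 1 libraries and in 0 uninjured ones. Npas4 had 0, 37, 115, 79 and 146 counts in zone 1 replicates 1 to 5 and 0 to 3 in the uninjured libraries. Lower were Pigv (-9.72), Dnah8 (-9.56), Slc7a15 (-9.10), Sox7 (-8.89), Gabrr2 (-8.67) and Myh6 (-8.09). Of the uninjured white matter counts, 1 library held 88.2% for Sox7 and 80.7% for Myh6.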

How the results depend on the processing

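The 40 rises kept a positive and the 7 falls a negative sign in every alternative in which they were tested, while the number of calls moved widely. Between zone 1 and uninjured IP, 47 genes were called, and 5 to 275 when 1 library was left out, highest without zone 1 replicate 1 and lowest without uninjured replicate 2. No filter on low counts gave 582, DESeq2 591 (31 of the 40 rises among them), limma voom with quality weights 833, leaving out both shallow libraries 410 and 1 fit of all white matter IP groups 17 (10 of the 40 rises). Against zone 2, 0 were called, 187 without the filter and 0 with any 1 library left out. The interaction with the cortex had 274 calls, with 92 to 866 when 1 library was left out, 774 without the filter, 931 with DESeq2 and 1199 without both shallow libraries. The input comparison had 8, with 1 to 12 when 1 library was left out, 360 without the filter and 284 with DESeq2. Of 1614 alternative values for 78 genes, 1170 kept direction and side of the threshold, 334 lost the call, 94 gained it and 16 changed sign, the last all in 2 uncalled genes. Aldh1l1 (-0.15) had 0.052 with DESeq2's size factors, 0.050 with DESeq2, 0.36 with the replicate block, 0.58 with voom, 0.038 when thinned to equal depth, and -0.41 to 0.26 when 1 library was left out. S100b (-0.03) had 0.14 with either DESeq2 setting, 0.066 with voom, 0.028 when thinned and -0.60 to 0.24 when 1 library was left out. The causes were not tested.

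Libraries share replicate numbers, which the labels tie to no animal. Deviations of same-numbered libraries correlated by -0.034 to 0.062 between zone 1 and uninjured IP, and 1 of 5 correlated best with its own number. Between zone 1 and zone 2 they correlated by 0.031 to 0.096, and 3 of 5 correlated best with their own number. Libraries of unlike number ran from -0.119 to 0.126 there, and the zone 2 comparison had 0 calls with a replicate block as well. With the number as a replicate block 103 genes were called (39 of the 40 rises), 132 in the interaction and 7 in input. Thinned to equal depth, 54 genes were called. Zone 1 libraries kept 943091 to 3510337 counts outside ribosomal RNA, and genes with few counts were not tested.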
